A study of Mus musculus with 70 samples.

Results

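Cyclic nucleotide signalling rests on enzymes that make and enzymes that break down cAMP and cGMP, and all genes named as adenylyl cyclases (Adcy), guanylyl cyclases (Gucy1 and Gucy2) or phosphodiesterases (Pde) were followed here across 24 groups of mouse brain tissue and stem cells. The members were chosen by gene symbol alone: every Adcy gene with a number, every Gucy1 or Gucy2 gene, and every Pde gene with a number and at most a single letter from a to d, g or h. This gave 44 genes of 34677 in the gene table, of which 10 were adenylyl cyclases, 9 guanylyl cyclases and 25 phosphodiesterases. The natriuretic peptide receptors Npr1 and Npr2, which also carry a guanylyl cyclase domain, did not match by name and were counted in a list of related genes.

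The study sequenced mRNA from mice and cells labelled C57BL/6 in 70 libraries (the methods give the substrain C57BL/6NTac for adults and embryos): 57 from 18 adult regions (postnatal day 56, male), 9 from 4 embryonic regions (E14.5, in days of embryonic age) and 4 from 2 lines of mouse embryonic stem cells (mESC, the clones B6-1 and B6-2). No mouse or embryo was treated or genetically modified. The mESC were grown for collection in medium with kinase inhibitors and leukemia inhibitory factor, and their RNA was extracted with another kit than that of the punches. An adult library held punches of 3 or 4 mice pooled at lysis, except for 1 nucleus accumbens library from 1 mouse, and an embryonic library pooled 4 embryos, so that p-values measure the spread between pools. The study used fewer mice and embryos than separate pools would need, so libraries of different regions share animals, and the tests, which treat all libraries as separate, do not account for this. Each group had 2 to 4 libraries, apart from 1 library of embryonic forebrain, and total estimated counts per library ranged from 9074581 to 22229582 with a median of 17016935.

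The adult cortex was represented by the anterior cingulate area (ACA), the frontal pole (FRP) and the entorhinal area (ENT). The hypothalamus was represented by the arcuate nucleus (ARH), the dorsomedial nucleus (DMH), the lateral hypothalamic area (LHA), the paraventricular nucleus (PVH) and the ventromedial nucleus (VMH). The hindbrain nuclei were the dorsal-vagal complex (DVC), the nucleus of the solitary tract (NTS) and the parabrachial nucleus (PB). The cerebellum was represented by its nuclei (CBN) and by 4 lobule samples, the central lobule (CENT2), the culmen (CUL4-5), the uvula (UVU) and the flocculus (FL). The remaining adult groups were the nucleus accumbens (ACB), a part of the ventral striatum, and the ventral tegmental area (VTA). The embryonic groups were forebrain (F), midbrain (M), hindbrain (H) and the terminal and peduncular hypothalamus (THy-PHy).

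Adenylyl cyclases are membrane enzymes that make cAMP when stimulatory G proteins bind them, and inhibitory G proteins restrain several of them. Soluble guanylyl cyclases are paired alpha and beta chains that make cGMP in response to nitric oxide, while receptor guanylyl cyclases are activated by peptides or serve in photoreceptors and olfactory cells. Phosphodiesterases end the signal, and families differ in whether they take cAMP, cGMP or both and in whether calcium or cGMP regulates them. Adcy3, the cyclase of olfactory and neuronal cilia, is a known obesity gene in mice and humans.

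The labelled tissues were checked against marker genes. The summed level of 6 striatal neuron markers was 2684 TPM (the unit of the deposited levels, corrected for transcript length and library size) in ACB and at most 229 TPM in any other group. Granule and Purkinje cell markers summed to between 3070 and 5939 TPM in the lobules and to 881 TPM in CBN, and dopamine neuron markers to 1597 TPM in VTA. In the first VTA library 39.6% of all TPM was mitochondrial, and in the first H library 22.6%, against a median of 7.49% over the 70 libraries. Both libraries were kept, and each was also left out in turn.

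Of the 44 members, 40 reached a mean of 1 TPM in at least 1 group, while 57.2% of all genes in the table did. The 4 that did not were Adcy10, the bicarbonate-regulated soluble cyclase, the sensory cyclases Gucy2d and Gucy2f, and the cone photoreceptor subunit Pde6c. The median over members of the highest group mean was 28.4 TPM, close to the 29.9 TPM of all detected genes. The members varied more between adult regions: the median ratio of the highest to the middle adult group was 2.85 for the detected members and 1.74 for all detected genes. Of 39 members detected in adult tissue, 9 peaked in ACB, where 8.67% of all genes did. A further 11 peaked in a lobule (33.6% of all genes), 8 in cortex (14%), 5 in the hindbrain nuclei (9.94%), 4 in the hypothalamus (25.95%), 2 in VTA (2.26%) and 0 in CBN (5.60%).

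**Figure D1:**
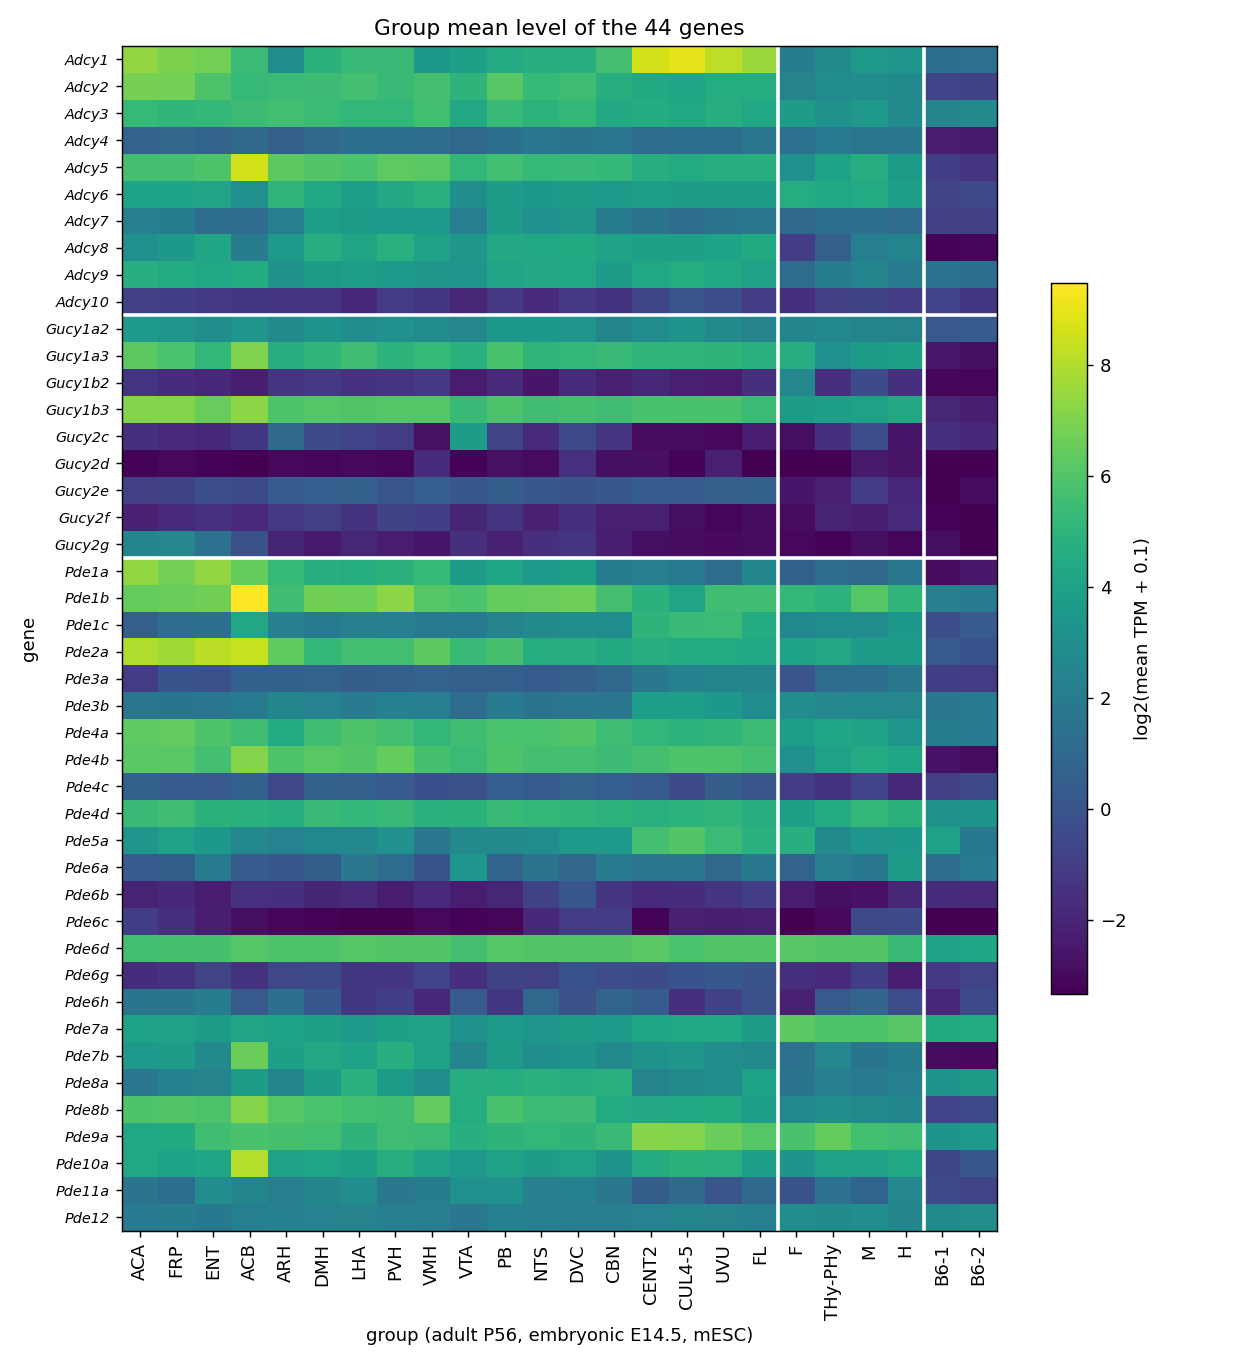
Group mean level of each of the 44 genes (rows, by family) in each of the 24 groups (columns: 18 adult, then 4 embryonic, then 2 mESC), coloured by log2(mean TPM + 0.1). Adcy5, Pde10a, Pde1b and Pde7b stand out in ACB and Adcy1, Pde5a and Pde9a in the 4 lobule samples, while the mESC columns are dark for most genes.

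The identity of the most abundant adenylyl cyclase changed with the area. Adcy1, stimulated by calcium and calmodulin, led the family in the 3 cortical areas and in all 5 cerebellar groups, with 80.8% ± 2.07 (SD, n = 4) of the summed Adcy TPM in CUL4-5. Adcy5, which calcium inhibits, led in ACB with 69.9% ± 3.97 (SD, n = 3), and with smaller shares, between 23.5% in LHA and 32.0% in ARH, in the 5 hypothalamic nuclei. Adcy5 also led in M, with 26.5% ± 2.77 against 23.7% ± 1.48 for Adcy6 (SD, n = 2). In VTA it had 24.8% ± 2.23 against 23.9% ± 2.88 for Adcy2 (SD, n = 3). The orders in M and VTA were within the spread between libraries. Adcy2, a calcium-insensitive enzyme, led in PB, DVC and NTS with shares between 19.4% and 28.2%. In NTS Adcy5 followed at 19.2% ± 0.372 against 19.4% ± 0.740 (SD, n = 4), so the order of these 2 was within the spread between libraries. Adcy6, a close relative of Adcy5, led in F, with a single library, and by the mean in THy-PHy and H. In the third H and THy-PHy libraries Adcy5 was the higher, at 19.8 and 15.25 TPM against 18.9 and 14.8 TPM of Adcy6. Adcy3 led in both mESC lines, where the summed Adcy level was only 13.1 and 14.1 TPM.

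**Figure D2:**
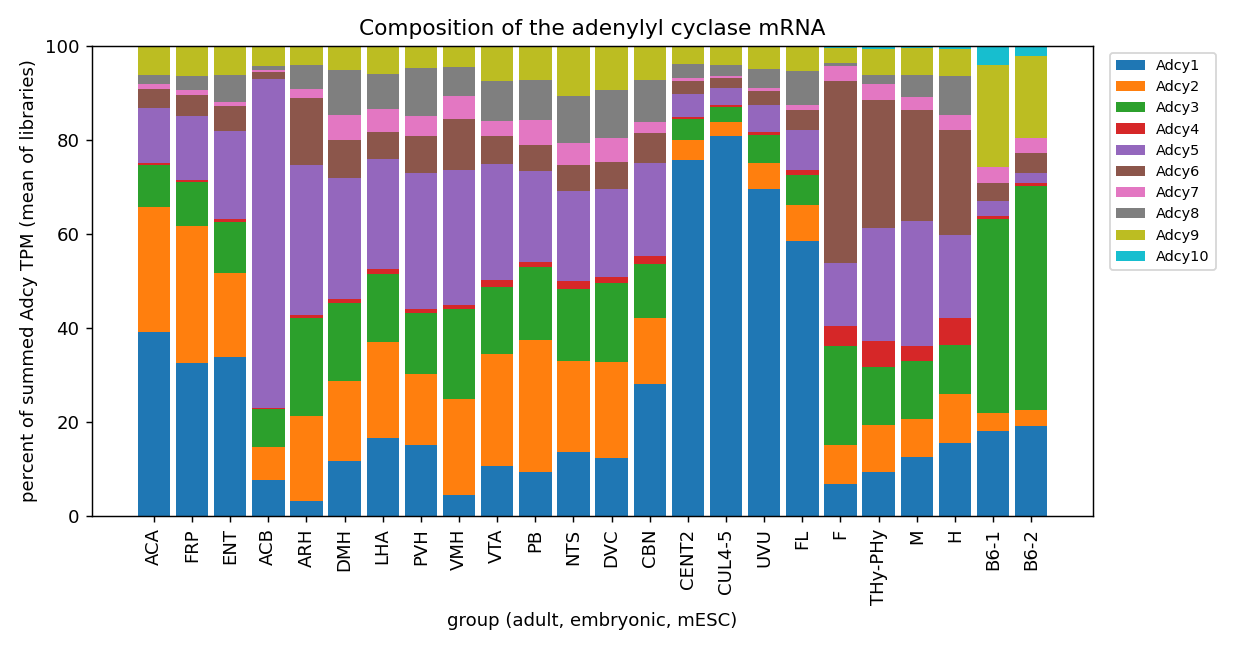
Share of each adenylyl cyclase in the summed Adcy TPM of every group, as the mean of the libraries, in percent. Adcy1 fills most of the bar in the lobules, Adcy5 fills 69.9% in ACB, and no single gene exceeds 32.0% in the hypothalamic nuclei.

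Among the phosphodiesterases, the calcium- and calmodulin-stimulated Pde1b led the family in 9 groups. Pde2a, which cGMP activates, led in the 3 cortical areas and ARH, and the cGMP-specific Pde9a led in the 4 lobule samples and THy-PHy. In FL Pde9a had 14.3% ± 1.02 of the summed Pde TPM against 14.1% ± 1.14 for Pde6d (SD, n = 4). In VTA Pde1b had 12.8% ± 4.90 against 11.4% ± 1.91 for Pde6d (SD, n = 3). The orders in FL and VTA were thus within the spread between libraries. Pde8b, a cAMP enzyme of high affinity, led in VMH with 14.6% ± 0.230 of the summed Pde TPM (SD, n = 2), and Pde7a, another cAMP enzyme, led in F, H and both mESC lines. Pde6d, a chaperone of prenylated proteins rather than a catalytic subunit, led in CBN and was level across the adult brain, with group means between 47.7 and 73.1 TPM. These orders hold for gene TPM, which includes transcripts not annotated as protein-coding. In protein-coding transcripts alone, Pde2a led only in ACA and ENT, and Pde9a in no group. Pde9a was then at 56.3 TPM in CENT2, below Pde6d at 59.0 TPM. Pde8b in VMH (46.9 TPM) and Pde6d in CBN (49.6 TPM) lay below Pde1b (68.1 and 52.1 TPM). Pde7a lay below Pde6d in F, H and both mESC lines. Gucy1b3, the beta chain of the nitric oxide receptor, was the leading soluble guanylyl cyclase in 21 groups. Its partner alpha chain Gucy1a3 led in F, where a single library is available, and Gucy1a2 in mESC at 1.07 and 1.16 TPM.

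For the obesity gene Adcy3 the group means of adult tissue formed a shallow gradient (chr12:4133103-4213525, plus strand, GRCm38). The highest were ARH with 52.8, 45.0 and 48.7 TPM in its 3 libraries and VMH with 49.8 and 46.5 TPM in its 2. ACB followed with 45.1, 48.8 and 38.0 TPM and DMH with 43.5, 41.5, 42.2 and 41.4 TPM, and these 2 groups overlapped each other and ACB overlapped the groups above it. Means between 34.7 and 38.7 TPM were found in PB, ACA, DVC, ENT, LHA, PVH and FRP, and neighbours in this order differed by less than the larger of their SDs. NTS had a mean of 30.5 TPM ± 1.76 (SD, n = 4). The lowest adult means were those of the cerebellum, between 19.7 TPM ± 3.23 in FL (SD, n = 4) and 25.3 TPM ± 1.26 in UVU (SD, n = 3), and of VTA, whose libraries read 6.89, 33.2 and 23.3 TPM. The lowest of these was the library with 39.6% mitochondrial TPM. These levels are gene TPM, and in protein-coding transcripts alone VMH was the highest at 44.1 TPM, followed by ARH at 43.1 TPM. CUL4-5 was then the lowest adult group at 14.1 TPM. Coding transcripts made up 69.8% of the Adcy3 TPM in CUL4-5 and 91.7% in VMH. Adcy3 was not called in any comparison between adult areas, in which its fitted log2 difference ran from -0.92 in the lobules (SE 0.054, adjusted p = 1.7e-21) to 0.49 in the hypothalamus, short of the limit of 1. Its pattern over the 18 adult group means was most like that of Pde8b, with a Pearson r of 0.93, given as a description because the regions share libraries, scaling and cell types.

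Differences between areas were tested with edgeR's quasi-likelihood test on estimated counts over 19980 genes, and a gene was called where the Benjamini-Hochberg adjusted p was under 0.05 and the log2 difference above 1 in size. Of the 44 members 43 could be tested, as Gucy2d had too few counts. In each comparison 1 area was set against the mean of the other adult regions, so the comparisons share libraries and are not independent of each other. Because the punches are bulk tissue, fewer cells of a type and less RNA per cell cannot be told apart.

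More members were called higher in ACB than in any of the other 5 adult areas set against the rest. Of the 43 members tested, 12 were called higher in ACB, where 7.30% of all genes tested were, and 3 were called lower, where 5.49% were. Pde10a, a dual-specificity enzyme enriched in striatal projection neurons, had 302, 276 and 217 TPM in the 3 ACB libraries. No other adult library exceeded 32.4 TPM, and the fitted log2 difference was 4.08 (SE 0.067, adjusted p = 7.9e-45). Pde1b read 796, 754 and 581 TPM in ACB and between 15.3 and 158 TPM in the other 54 adult libraries, a log2 difference of 3.41 (SE 0.129, adjusted p = 1.4e-28). Adcy5 read 441, 399 and 319 TPM against 14.1 to 82.6 TPM, a log2 difference of 3.13 (SE 0.085, adjusted p = 5.5e-35). Pde7b, a cAMP-specific enzyme, read 114, 94.5 and 81.9 TPM against 3.55 to 27.0 TPM, a log2 difference of 3.07 (SE 0.096, adjusted p = 3.0e-32). For these 4 genes each ACB library lay above all other adult libraries.

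Pde2a and Pde1a were high in ACB and also in cortex. Pde2a had 338, 340 and 333 TPM in ACB and up to 317 TPM in an ENT library, and its log2 difference from the mean of the other regions was 2.79 (SE 0.112, adjusted p = 1.6e-27). Pde1a had 75.8, 81.5 and 109 TPM in ACB and up to 197 TPM in ENT, so that its cortical libraries overlapped and exceeded those of ACB. Both chains of the nitric oxide receptor were also called higher: Gucy1a3 with 140, 108 and 139 TPM against at most 86.5 TPM elsewhere (log2 difference 1.70), and Gucy1b3 with 150, 155 and 152 TPM against at most 139.5 TPM (log2 difference 1.27). The remaining members called higher were Pde8b (1.70), Pde1c (1.59), the cAMP-specific Pde4b (1.16) and the olfactory cyclase Gucy2g (2.06). Gucy2g reached no more than 1.11 TPM in ACB, and its sign turned to -0.25 (adjusted p = 0.93) when the adult libraries were pooled into 2 groups, ACB and the rest. In the same pooled fit Pde1a (log2 difference 1.18, adjusted p = 0.47) and Pde1c (0.75, adjusted p = 0.54) lost their calls, as did Adcy7 (-1.515, adjusted p = 0.098) and Pde5a (-2.58, adjusted p = 0.17) with larger differences than before.

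The members called lower in ACB were Adcy8, a calcium-stimulated cyclase like Adcy1, with 4.60, 3.16 and 4.85 TPM against 6.63 to 30.0 TPM in the other adult libraries (log2 difference -1.997, SE 0.153), Pde5a (-1.38, SE 0.162) and Adcy7 (-1.29, SE 0.148). Adcy8 was thus below every other adult library. The lists of related genes held the following calls. Of 13 cAMP effectors, 3 were called higher and 0 lower: the phosphatase inhibitor Ppp1r1b (4.99), which is also 1 of the 6 striatal markers, the kinase regulatory subunit Prkar2b (2.18) and the kinase inhibitor Pkig (1.43). Of 7 G protein genes, Gnal, the stimulatory alpha subunit of olfactory and striatal neurons, was higher by 2.16 and Gnas, its counterpart in most tissues, lower by a log2 difference of -1.33. Of 11 genes for cGMP effectors and sources 2 were called lower (Npr1 and the peptide Nppc), and of 9 cyclic nucleotide gated channels tested 2 (Hcn4 and Cngb1).

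**Figure D3:**
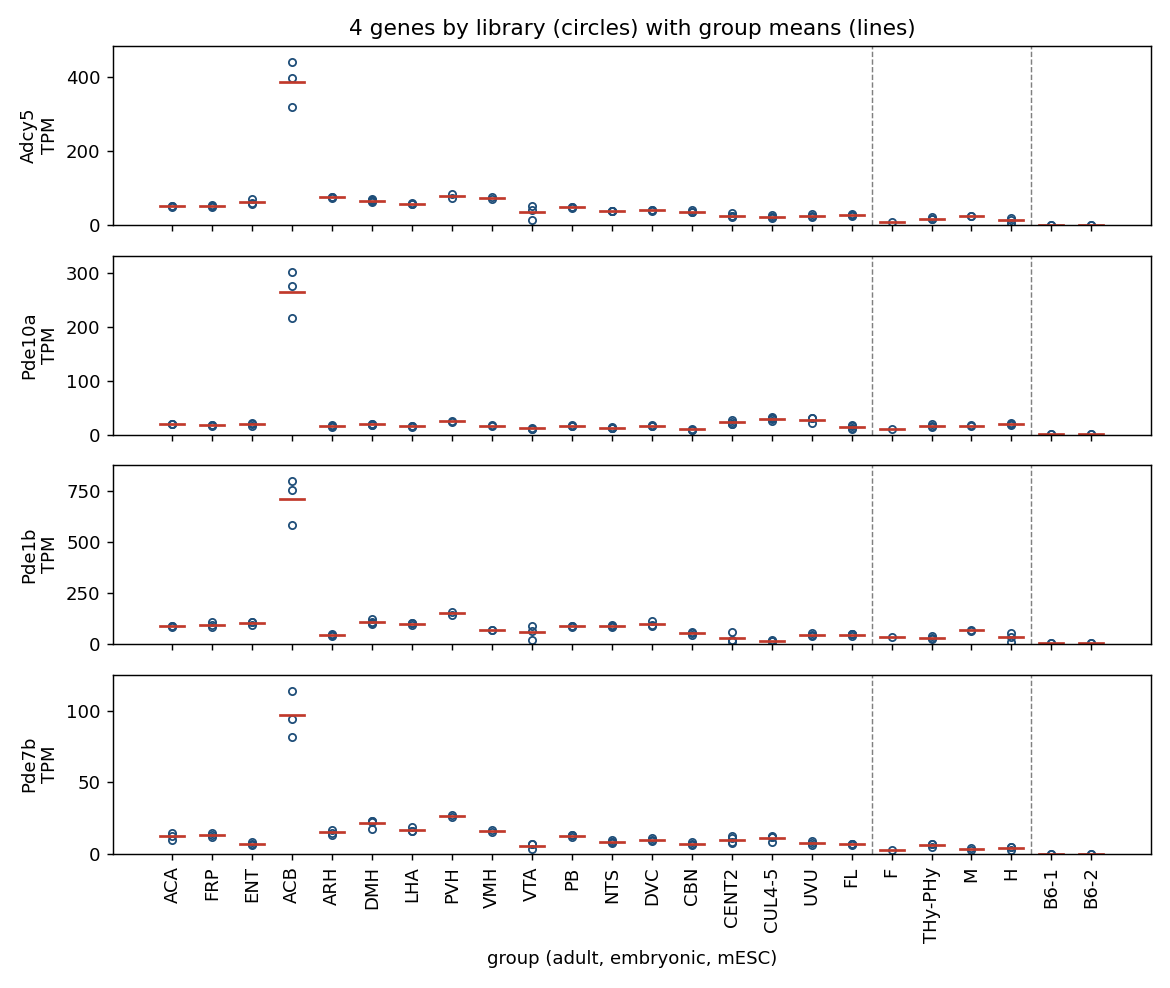
Level in TPM (linear axes) of Adcy5, Pde10a, Pde1b and Pde7b in each library (circles) with the group mean (line), for adult, embryonic and mESC groups. For all 4 genes the 3 ACB libraries lie above every other library.

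The genomic sequence just upstream of the start sites of 3 of these genes and of Adcy1, described below, is shown because every ACB library exceeded all other adult libraries for the 3 and Adcy1 was the leading cyclase of the lobules (RefSeq start sites, GRCm38.p6, plus strand, 5′ to 3′, exon bases left out, GC box letters GGGCGG or CCGCCC in capitals). They lie at chr16:35154614-35154863 for Adcy5, chr17:8801495-8801692 for Pde10a, chr15:103502784-103503033 for Pde1b and chr11:7063183-7063432 for Adcy1.
Adcy5: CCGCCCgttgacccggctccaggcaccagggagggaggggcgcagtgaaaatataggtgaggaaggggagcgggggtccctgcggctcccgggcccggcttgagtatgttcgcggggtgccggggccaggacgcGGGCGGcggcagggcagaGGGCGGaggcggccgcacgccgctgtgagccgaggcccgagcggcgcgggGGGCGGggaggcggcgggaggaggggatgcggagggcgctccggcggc
Pde10a: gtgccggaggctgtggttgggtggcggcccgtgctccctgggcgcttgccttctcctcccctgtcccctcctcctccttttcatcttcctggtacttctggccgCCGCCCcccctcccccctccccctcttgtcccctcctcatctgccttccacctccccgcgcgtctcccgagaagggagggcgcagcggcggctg
Pde1b: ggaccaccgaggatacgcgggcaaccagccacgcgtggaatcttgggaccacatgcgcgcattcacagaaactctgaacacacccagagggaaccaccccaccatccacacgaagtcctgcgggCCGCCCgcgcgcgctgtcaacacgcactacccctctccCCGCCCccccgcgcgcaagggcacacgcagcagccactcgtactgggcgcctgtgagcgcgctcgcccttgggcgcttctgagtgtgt
Adcy1: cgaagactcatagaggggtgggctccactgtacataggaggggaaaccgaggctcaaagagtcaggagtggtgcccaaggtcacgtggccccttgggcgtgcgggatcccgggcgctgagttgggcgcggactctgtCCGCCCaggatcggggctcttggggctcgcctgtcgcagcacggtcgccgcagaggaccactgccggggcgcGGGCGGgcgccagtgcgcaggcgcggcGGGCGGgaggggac
The 4 windows hold 4, 1, 2 and 3 GC boxes in this order, and their GC content is 78.0%, 70.7%, 67.2% and 71.2% against a median of 52.4% over 32851 windows of RefSeq starts. None holds the full cAMP response element TGACGTCA, its TGACG part or the letters TATAAA on either strand. A GC box was found in 32.7% of all windows and in 22 of 60 windows of the 34 members with an entry, the TGACG letters in 17.8% and in 10 of 60, TATAAA in 12.4% and in 3 of 60, and the full element, which contains TGACG, in 1.55% and in 0 of 60. These matches describe letters in a window and not binding.

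In the cerebellar lobules Adcy1, Pde5a, Pde9a and Pde1c were higher than in the other adult regions, while Pde1a, Pde2a and Pde1b were lower. Of 43 members, 7 were called higher in the lobules than in the other adult regions, where 8.21% of all genes were, and 11 lower, where 9.75% were. Adcy1 had a median of 319 TPM over 15 lobule libraries (lowest 129 in FL, highest 523 in CUL4-5) against at most 181 TPM in any other adult library, in ACA. Only the FL libraries overlapped the cortical ones, and the log2 difference was 3.04 (SE 0.067, adjusted p = 9.6e-40). Pde5a, a cGMP-specific enzyme, had a median of 49.6 TPM (lowest 25.9, highest 79.4) against at most 23.2 TPM in the other adult libraries, with a log2 difference of 3.48 (SE 0.064, adjusted p = 3.4e-43). Pde9a had a median of 120.1 TPM (lowest 56.7, highest 155) and a log2 difference of 1.51 (SE 0.045, adjusted p = 4.8e-34), and its FL libraries overlapped those of ACB and ARH.

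Pde1c, the calmodulin-dependent enzyme that takes cAMP and cGMP alike, had a median of 36.0 TPM in the lobules (lowest 19.1, highest 44.8), and the only other adult group to overlap it was ACB, at 16.3 to 22.4 TPM (log2 difference 2.67, SE 0.049, adjusted p = 3.4e-43). The cGMP-inhibited cAMP enzymes Pde3a and Pde3b also rose, by log2 differences of 1.83 (SE 0.070) and 1.38 (SE 0.051). Every lobule library had at least 3.15 TPM of Pde3a, and no other adult library had more than 2.25 TPM. Pde6g, an inhibitory photoreceptor subunit, was called higher as well, at group means of at most 1.04 TPM.

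The 11 members called lower in the lobules were led by Pde1a (log2 difference -3.73, SE 0.194, adjusted p = 1.5e-23), with a lobule median of 3.80 TPM. Gucy2c, Gucy2g and Gucy2f followed with group means of at most 0.12 TPM in every lobule, levels at which a fold change depends on few reads. Pde11a (-1.96), Pde2a (-1.84), Pde1b (-1.74), Pde8b (-1.53), Adcy5 (-1.46), Adcy7 (-1.38) and Adcy2 (-1.34) completed them. Of the 5 calmodulin-regulated genes of the cyclase and Pde1 families other than Adcy3, Adcy1 and Pde1c thus rose in the lobules, Pde1a and Pde1b fell, and Adcy8 was not called. Of 11 genes for cGMP effectors and sources, 2 were called higher, the kinase Prkg1 (1.15) and Npr1 (1.54), and 2 lower, Prkg2 (-3.45) and Npr3 (-2.34). Of 13 cAMP effectors 2 were higher and 3 lower, of 7 G protein genes 0 and 1, and of 9 channels 1 and 5.

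The leading transcript of Pde5a by TPM differed by region, although by estimated counts it did not. In the lobules the leading transcript was the protein-coding Pde5a-201, whereas in most other groups it was the non-coding Pde5a-203. Counting protein-coding transcripts alone, Pde5a was at 38.8 TPM ± 1.81 in CUL4-5 (SD, n = 4), 31.4 TPM ± 5.71 in CENT2 (SD, n = 4), 26.6 TPM ± 0.859 in UVU (SD, n = 3) and 17.9 TPM ± 3.62 in FL (SD, n = 4), against 5.13 TPM ± 0.367 in CBN (SD, n = 3) and between 1.13 and 3.35 TPM in the other adult groups. The contrast between the lobules and the rest was thus wider in coding transcripts than in the gene total. The leading transcript differed between groups in 18 of 33 members that could be compared, 13 of 27 where only groups with at least 5 TPM entered, and 13 of 33 by estimated counts, Pde5a not among them. Single reads of 33 cycles limit how well transcripts of a gene are told apart.

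**Figure D4:**
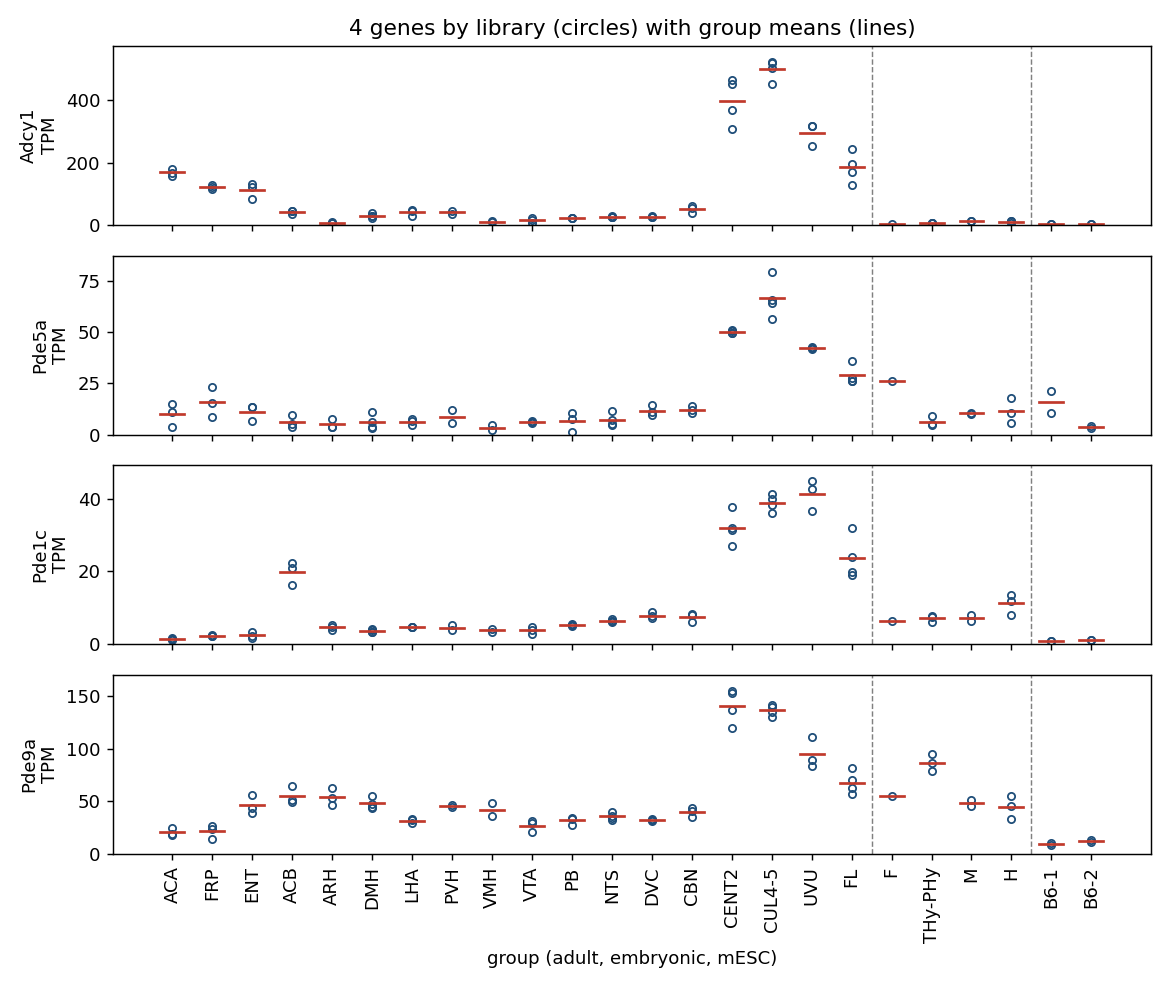
Level in TPM (linear axes) of Adcy1, Pde5a, Pde1c and Pde9a in each library (circles) with the group mean (line). The 4 lobule samples CENT2, CUL4-5, UVU and FL lie highest among adult groups for each gene, with FL the lowest of them for Adcy1, Pde5a, Pde1c and Pde9a.

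Within the lobules, 7 members differed between samples where 11.7% of all genes did. FL was the lowest for Adcy1 (log2 range of the fitted groups 1.35, adjusted p = 6.0e-08) and Pde9a (1.014, adjusted p = 6.5e-11, but 0.94 without FL replicate 4), and for Pde5a (1.02, adjusted p = 5.0e-06), a call that fell below the limit without CUL4-5 replicate 3 (0.99), FL replicate 2 (0.99) or FL replicate 4 (0.92). FL was the highest for Pde8a, with 14.03, 17.9, 16.0 and 20.5 TPM against 4.45 to 11.0 TPM in the other lobules (range 1.86, adjusted p = 2.9e-14). FL also held the most oligodendrocyte marker TPM of the lobules, 9828 against 1699 to 2620, and 1381 TPM of choroid plexus markers against 8.84 to 711, and the part of these in the result was not tested. Pde1b, Pde1a and Gucy2f, the last not without CENT2 replicate 1 (adjusted p = 0.070), were the other members called. For Pde1b the first CENT2 library read 60.6 TPM and the other 3 read 17.4 to 21.2 TPM; that library also had fewer granule and Purkinje marker TPM (3985) than the other CENT2 libraries (5529 to 5982).

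The cerebellar nuclei differed from the lobules above them in 13 members. Of 43, 7 were called higher, where 11.0% of all genes were, and 6 lower, where 5.47% were. Adcy1 fell to 37.9, 55.5 and 61.8 TPM, below all lobule libraries (log2 difference -2.44, SE 0.182, adjusted p = 3.3e-16), and Pde5a to 11.9, 10.6 and 13.95 TPM (-2.18, SE 0.164, adjusted p = 4.1e-16). Pde1c (-1.95), Pde9a (-1.41), Pde3b (-1.40) and Pde3a (-1.11) were also lower. Pde8a rose to 28.7, 28.4 and 27.1 TPM (1.96, SE 0.123, adjusted p = 1.2e-18), beside 14760 TPM of oligodendrocyte markers and 7205 TPM of choroid plexus markers, the most of any group, whose part in the result was not tested. Pde11a (1.26) was higher too, and the other 5 members called higher, Gucy2c, Gucy2f, Gucy2g, Pde4c and Pde6c, were all at group means of at most 1.31 TPM. Of these, Gucy2f lost its call without CBN replicate 1 (adjusted p = 0.060), Pde4c without CBN replicate 2 (log2 difference 0.91) and Gucy2g without CBN replicate 3 (adjusted p = 0.10). On the TPM scale with limma and a pseudocount of 0.5, Pde8a was the 1 member called higher, and the share of higher genes among all calls fell from 66.9% to 43.8%. Pde4c was tested on only part of its transcripts, and limma on its gene TPM gave a log2 difference of 0.28 (adjusted p = 0.38).

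In the cortex, 7 of 43 members were called higher, where 8.17% of all genes were, and 3 lower, where 7.95% were. Pde1a read 161 to 170 TPM in ACA, 90.4 to 130 TPM in FRP and 135 to 197 TPM in ENT, and outside ACB no library of another adult region exceeded 40.8 TPM (log2 difference 3.71, SE 0.142, adjusted p = 5.6e-29). Pde2a was between 183 and 317 TPM (2.70, SE 0.078, adjusted p = 2.7e-34). Gucy2g, at 5.14 to 6.07 TPM in ACA, 5.09 to 6.89 TPM in FRP and 2.49 to 3.23 TPM in ENT, did not exceed 1.11 TPM in any other adult library (5.45, SE 0.186, adjusted p = 8.9e-31). Adcy1 (1.54, SE 0.078), Adcy2 (1.46, SE 0.056) and Gucy1b3 (1.12, SE 0.035) were higher, and the call of Adcy1 was lost with 2 pooled groups (adjusted p = 0.78). Pde6c was called at group means of no more than 0.41 TPM. Lower were Pde1c (-2.15, SE 0.079), Pde8a (-1.72, SE 0.095) and Pde3a (-1.503, SE 0.105). Without the scaling factors 5 members were called lower, Gucy1b3 stood at 0.95 and the share of higher genes among all calls moved from 50.7% to 38.95%. Of 13 cAMP effectors 3 were higher, the exchange factor Rapgef4 (1.20), Pkig (1.51) and Prkar1b (1.05), of 11 cGMP genes 2 were higher, of 9 channels 1 was higher and 2 lower, and of 7 G proteins 0 were called.

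Between the cortical areas 5 members differed, where 5.02% of all genes did. Pde9a was at 43.8, 39.3 and 55.5 TPM in ENT against 14.51 to 26.8 TPM in ACA and FRP (log2 range 1.33, adjusted p = 7.4e-12). Adcy8 was at 18.8, 20.9 and 17.2 TPM in ENT against 8.33 to 16.7 TPM (range 1.19, adjusted p = 1.1e-06). In both genes ENT did not overlap the other areas. Pde11a, Pde3a and Pde6a were the others. Pde6a lost its call when any of 8 of the 9 cortical libraries was left out, with adjusted p up to 0.20 without ENT replicate 3, and without ENT replicate 2 Pde11a lost its call too (adjusted p = 0.098), so that 3 members were called.

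In the hypothalamus 2 of 43 members were called higher than in the other adult regions, where 6.11% of all genes were, and 5 lower, where 2.74% were. Adcy7, a cyclase known from blood cells and microglia as well as neurons, had a median of 11.8 TPM over 14 libraries (log2 difference 1.14, SE 0.064, adjusted p = 2.2e-21), with ARH apart at 4.41 to 4.69 TPM, and fell to 0.99 with 2 pooled groups. Gucy2f was called higher at group means of at most 0.48 TPM. Adcy1 was lower, with a median of 28.6 TPM (-2.13, SE 0.089, adjusted p = 1.4e-26), as were Pde5a (-1.76, SE 0.085) and Pde1c (-1.10, SE 0.061). Gucy2g and Pde6c were also called lower, both at 0.33 TPM or less in every hypothalamic library, and Pde6c lost its call without VTA replicate 1 (adjusted p = 1). Of 9 cyclic nucleotide gated channels 3 were higher, Cngb1 (3.69), Cnga3 (2.86) and Cngb3 (2.46), and 1 was lower. Of 13 cAMP effectors 1 was lower (Ppp1r1b), of 11 cGMP genes 1 was higher (Prkg2), and of 7 G proteins 0 were called.

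The hypothalamic nuclei differed among themselves in 10 members, where 13.1% of all genes did. Adcy1 was lowest in ARH, at 5.98 to 8.33 TPM, and in VMH, at 10.6 to 11.5 TPM. It was highest in LHA, at 29.4 to 46.8 TPM, and in PVH, at 36.0 and 45.2 TPM, which overlapped (log2 range of fitted groups 2.63, adjusted p = 2.4e-15). Adcy6 ran the other way, from 13.6 to 14.2 TPM in LHA to 32.2 to 34.2 TPM in ARH (range 1.12, adjusted p = 1.1e-11). Pde1b was highest in PVH (145 and 158 TPM) and lowest in ARH (41.5 to 50.2 TPM; range 1.79, adjusted p = 9.8e-06). Pde4a was highest in LHA (54.3 to 62.2 TPM) and lowest in ARH (20.7 to 23.9 TPM; range 1.57, adjusted p = 4.7e-13). The low groups named did not overlap the high ones for any of these 4 genes. Adcy7 (range 1.67), Adcy8 (1.30), Pde2a (1.16), Gucy1a3 (1.09, and 0.97 without scaling factors), Gucy2c (5.37) and Pde8a (2.56) also differed. Pde8a was highest in LHA with 31.2, 25.7 and 26.9 TPM and lowest in ARH with 4.68, 7.74 and 3.83 TPM. Oligodendrocyte markers summed to 10960 TPM in LHA and 1161 TPM in ARH, and their part in the result was not tested.

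In the hindbrain nuclei 3 members of 43 were called higher, where 5.17% of all genes were, and 1 lower, where 2.67% were. Pde8a, a cAMP enzyme, lay between 23.9 and 30.7 TPM over the 10 libraries (log2 difference 1.46, SE 0.071, adjusted p = 1.1e-23), beside oligodendrocyte markers summing to between 10060 and 12540 TPM. The 7 groups with the highest Pde8a means, between 17.1 and 28.9 TPM, were the 3 hindbrain nuclei, CBN, VTA, LHA and FL, which also had the 7 highest sums of these markers, and the part of the markers in the result was not tested. Adcy7 was higher, at 7.24 to 14.1 TPM (1.25, SE 0.069, adjusted p = 2.1e-21), as was the rod subunit Pde6b (1.55, SE 0.284) at group means of at most 1.02 TPM. Adcy1 was lower (-1.39, SE 0.094, adjusted p = 3.0e-18). The 3 nuclei differed in 4 members, where 2.88% of all genes did. Pde2a was at 54.8, 51.2 and 55.3 TPM in PB against 23.4 to 29.1 TPM in DVC and NTS (log2 range 1.03, adjusted p = 1.6e-04), a range that fell below the limit of 1 with the replicate block (0.97) and without NTS replicate 1 (0.995) or PB replicate 3 (0.99). The other 3, Gucy2c, Pde6b and Pde6c, were all at 2.13 TPM or less. Gucy2c lost its call when any of 9 of the 10 libraries was left out, and the count fell to 2 without DVC replicate 1, NTS replicate 1 or PB replicate 2 and to 1 without PB replicate 3. Of the related lists 0 or 1 gene was called in each for the hindbrain against the rest, among them the channel Hcn2 (1.34) and Ppp1r1b (-1.04).

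In VTA 4 members were called higher, where 6.89% of all genes were, and 3 lower, where 3.65% were. Gucy2c, the receptor of the gut peptides guanylin and uroguanylin, had 5.70, 15.6 and 17.4 TPM in VTA and no more than 3.03 TPM, in ARH, in any other adult library (log2 difference 6.40, SE 0.190, adjusted p = 2.5e-32). The VTA libraries did not overlap the others. Their dopamine neuron markers summed to 694, 1884 and 2212 TPM in the same order, while ARH, the other adult group with Gucy2c above 1 TPM, had 181 TPM. Marker sums of 190.4 TPM in PB and 150.1 TPM in VMH went with mean Gucy2c levels of only 0.52 and 0.049 TPM. The VTA library lowest in Gucy2c and in these markers, the first, had 39.6% mitochondrial TPM. Its oligodendrocyte markers were low too, at 7445 TPM against 13850 and 14650 TPM. A link between Gucy2c and the marker sums was not tested. Pde8a was higher (1.74, SE 0.109), at 17.3, 29.8 and 29.1 TPM, with 11980 TPM of oligodendrocyte markers, whose part in the result was not tested. Pde6a, the rod photoreceptor subunit, read 22.5, 3.11 and 5.23 TPM (3.33, SE 0.301), and Pde11a, which takes cAMP and cGMP, 13.3, 6.50 and 5.81 TPM (1.94, SE 0.288). For both the high value was that of the library with 39.6% mitochondrial TPM, without which the log2 differences were 1.27 (adjusted p = 0.0066) and 1.002 (adjusted p = 0.027), and the 5 photoreceptor markers summed to 1.21 TPM in VTA, less than in any other group. Adcy1 (-1.68, SE 0.167, at 6.52, 21.2 and 16.8 TPM), Pde5a (-1.11) and Pde6g (-1.497) were lower, and 1 of these 3 calls remained without VTA replicate 2, while 2 remained without VTA replicate 1 or 3. The share of higher genes among all calls in VTA was 65.4%, but 49.5% without scaling factors and 15.5% in limma on TPM. The 4 higher members were called under all 3, but with 2 pooled groups Pde8a (1.33, adjusted p = 0.12) lost its call. Adcy1 (-2.78, adjusted p = 0.15), Pde5a (-2.31, adjusted p = 0.24) and Pde6g (-1.84, adjusted p = 0.13) did too, with larger differences than before. Of 11 cGMP genes 2 were lower, Nppc (-1.19) and Nos1 (-1.11), and no gene of the other 3 lists was called.

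In both embryonic areas that were set against adult tissue, more members were called lower than higher. Adult and embryonic libraries were prepared in separate batches, so stage and batch cannot be told apart. Against the 5 adult nuclei, THy-PHy had 3 members called higher, where 18.2% of all genes were, and 21 called lower, where 20% were. Against the 3 adult hindbrain nuclei, H had 7 called higher (23.0% of all genes) and 22 lower (21.1% of all genes). The median log2 difference of the 43 members was -1.0 in the hypothalamus and -1.11 in the hindbrain, against 0.00 and 0.02 over all genes tested. Summed Adcy TPM was 71.8 ± 13.5 in THy-PHy and 66.1 ± 23.98 in H (SD, n = 3 each), while adult hypothalamic nuclei had means of 234 to 271 TPM and hindbrain nuclei of 198 to 248 TPM. The summed Pde level differed less, at 397 TPM in THy-PHy against 544 to 674 TPM in the adult nuclei.

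Among the cyclases, Adcy3 fell in both areas, with 11.7, 7.69 and 7.46 TPM in THy-PHy (log2 difference -2.69, SE 0.132, adjusted p = 1.9e-24) and 3.67, 7.99 and 9.08 TPM in H (-2.50, SE 0.133, adjusted p = 5.5e-23). All embryonic libraries lay below every library of the adult areas they were set against, which had at least 28.0 TPM. Protein-coding transcripts made up 52.7% of the Adcy3 TPM in THy-PHy and 67.0% in H, at 4.72 and 4.64 TPM. In the adult areas compared they made up between 88.3% in ARH and 93.1% in PB. Adcy8 fell by 3.73 on the log2 scale in the hypothalamus (SE 0.186) and by 1.895 in the hindbrain (SE 0.160), and Adcy2 by 2.64 and 2.79. Adcy1, Adcy5, Adcy7 and Adcy9 were also lower in both areas. Adcy6 was not called, at -0.16 in the hypothalamus and 0.30 in the hindbrain, and neither were Adcy4 and Adcy10. Gucy1b3 fell by 2.32 and 1.57, and its partner Gucy1a3 by 1.49 in the hypothalamus, with -0.98 in the hindbrain, not called.

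Among the phosphodiesterases, Pde7a rose in both embryonic areas, with 61.2, 70.3 and 54.2 TPM in THy-PHy and 72.0, 69.0 and 70.4 TPM in H. No adult library of any region exceeded 21.6 TPM, and the log2 differences were 2.05 (SE 0.071, adjusted p = 1.2e-30) and 2.29 (SE 0.076, adjusted p = 1.4e-31). Pde3a (1.42) and Pde3b (1.11) rose in the hindbrain, but without H replicate 1 they stood at 0.99 and 0.97. Pde6a was called higher in both areas (1.55 and 2.94), where H replicate 1, with 22.6% mitochondrial TPM, read 27.8 TPM and the other H libraries 7.84 and 3.07 TPM, and without it the hindbrain difference was 1.395 (adjusted p = 0.0055). Pde5a was called higher on counts (1.64 and 1.503), whereas limma on gene TPM gave 0.17 (adjusted p = 0.72) and 0.46 (adjusted p = 0.29). Its coding transcripts were at 5.19 TPM ± 1.00 in THy-PHy (SD, n = 3) and at 1.20 to 1.92 TPM in the adult nuclei. Pde6c and Pde6h completed the hindbrain calls. The count of higher members in the hypothalamus was 5 without THy-PHy replicate 1.

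The largest fall of a phosphodiesterase was that of Pde1a, by 4.21 on the log2 scale in the hypothalamus (SE 0.435, adjusted p = 2.3e-12), where the THy-PHy libraries had 1.901 to 2.60 TPM and the adult ones 21.2 to 40.8 TPM. In the hindbrain it was -2.54 (SE 0.408). Pde8b fell by 2.88 and 2.84, Pde4b by 2.04 and 1.43, Pde1b by 1.496 and 1.44, Pde2a by 1.40 and 1.35 and Pde7b by 1.74 and 1.11, the last below the limit without H replicate 2 (-0.86) or H replicate 3 (-0.96). Pde8a fell by 1.36 and 2.55, with embryonic oligodendrocyte markers under 40 TPM in every group, and their part in the result was not tested. Pde4a fell by 2.28 in the hindbrain. In H replicate 1, the library with 22.6% mitochondrial TPM, Pde1b was at 11.1 TPM (others 34.8 and 55.2), Pde2a at 5.62 TPM (others 11.5 and 21.9) and Pde4a at 5.32 TPM (others 12.7 and 11.9). Without that library the hindbrain differences of these genes were -1.11, -1.085 and -2.13, all still called. The remaining lower members were Gucy2c, Gucy2e, Gucy2f, Gucy2g, Pde4c, Pde6b and Pde6g, in 1 area or both and all of low level. Pde6b lost its call in the hypothalamus without PVH replicate 2 (adjusted p = 0.050), THy-PHy replicate 1 (0.15) or THy-PHy replicate 3 (0.14), and Pde6g in the hindbrain without H replicate 1 (0.063) or H replicate 2 (0.12). Pde10a, Pde4d, Pde9a, Pde1c and Pde12, a mitochondrial enzyme that trims RNA rather than cyclic nucleotides, were not called in either.

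The pathway lists moved in the same comparisons as follows. In the hypothalamus 7 of 13 cAMP effectors were lower and 1 higher, and in the hindbrain 7 were lower and 2 higher, with Ppp1r1b (-5.94 and -4.79), Rapgef4 (-3.37 and -3.51) and Creb1 (1.09 and 1.46) as examples. Of 9 channels 6 were lower and 2 higher in the hypothalamus, and 4 lower and 0 higher in the hindbrain, where Hcn2 had the largest difference (-6.14). Of 11 cGMP genes 3 were lower and 1 higher in each area, with Nos1 (-3.78 and -3.48) in both. Of 7 G proteins 2 were lower and 1 higher in the hypothalamus and 3 and 1 in the hindbrain, Gnai3 being the higher one in both (1.74 and 1.71).

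**Figure D5:**
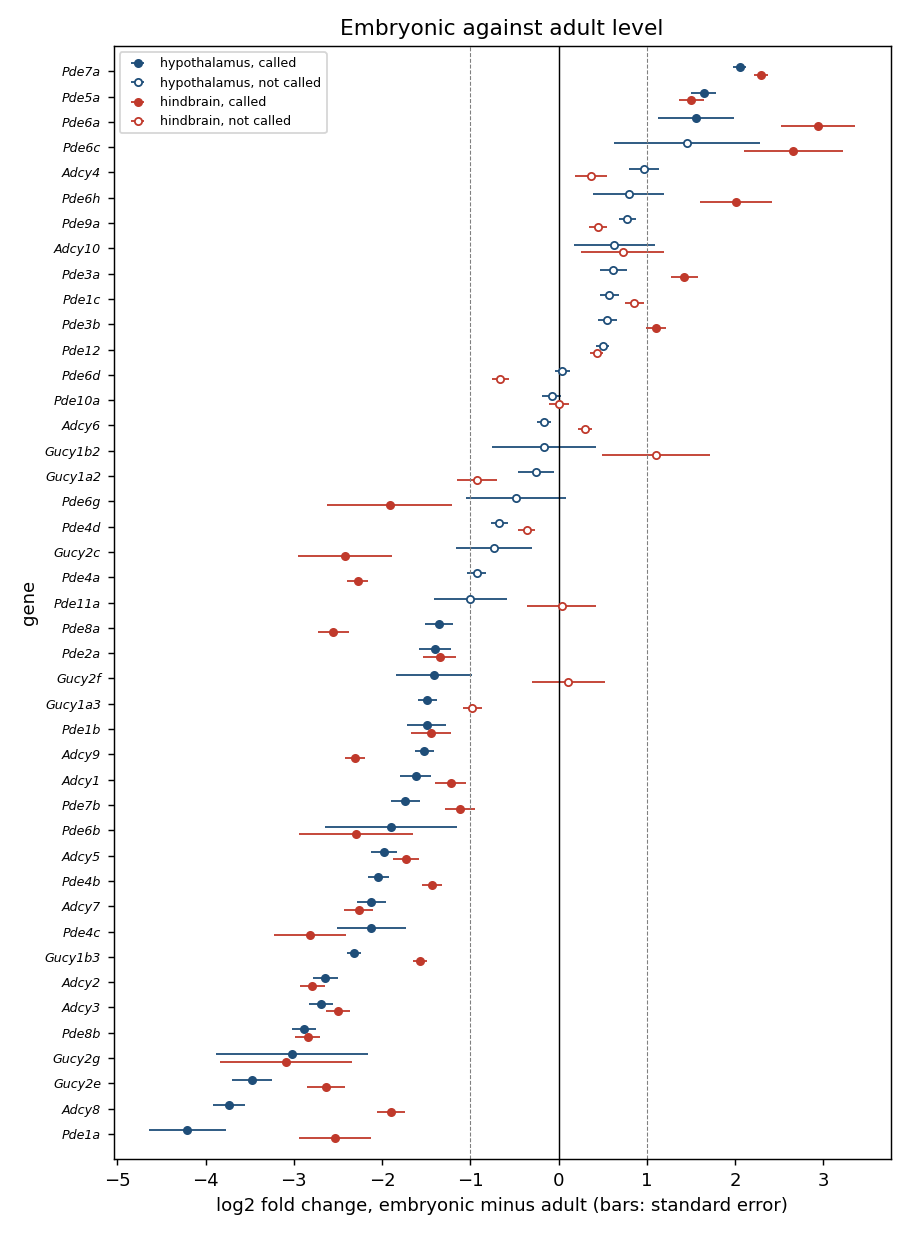
Log2 fold change of the 43 tested members between embryonic and adult hypothalamus (blue) and hindbrain (red), with bars of 1 standard error, filled circles where called and broken lines at -1 and 1. Pde7a lies at 2.05 and 2.29 at the top, Adcy3 at -2.69 and -2.50 near the bottom, and 21 and 22 members were called lower.

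The embryonic change differed between hindbrain and hypothalamus in 5 members by an interaction contrast added after the data were seen. For 3 the change was the more positive in the hindbrain, where 6.38% of all genes were, and for 2 the more negative, where 3.46% were. Adcy8 fell less in the hindbrain (difference of log2 changes 1.84, SE 0.221, adjusted p = 1.2e-08), and Pde4a (-1.35, SE 0.147, adjusted p = 9.8e-10) and Pde8a (-1.19, SE 0.221, adjusted p = 4.6e-05) fell more. The calls of Pde1a (1.67) and Gucy2f (1.52) were lost without H replicate 1 (adjusted p = 0.20 and 0.32) or THy-PHy replicate 1 (0.074 and 0.16), when Adcy8 was the 1 gene left with the more positive change, and 5 were called without H replicate 3.

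The mESC lines stood lowest. Against the mean of THy-PHy, M and H, 30 of 43 members were called lower, where 30.5% of all genes were, and 4 higher, where 27.5% were, and the median log2 difference of members was -2.22 against -0.03 over all genes. The study lists these lines in a batch of their own. It also grew them with kinase inhibitors and extracted their RNA by another method. Cell source, culture medium, extraction and batch thus cannot be told apart. The 4 mESC libraries are repeats of the lines B6-1 and B6-2, so p-values do not measure the spread between lines. Pde5a, for example, had a mean of 16.0 TPM in B6-1 and 3.51 TPM in B6-2. Soluble guanylyl cyclase was close to absent, with a sum of 1.33 and 1.32 TPM in B6-1 and B6-2 against 28.8 to 40.9 TPM in the 3 embryonic groups. Gucy1b3 had 19 summed counts in the 4 mESC libraries and 3504 in the 8 embryonic ones, and Gucy1a3 9 and 3743. Adcy8 and Pde4b had 2 and 3 counts in mESC, and their levels were at most 0.022 and 0.11 TPM against at least 1.13 and 13.5 TPM in the embryonic libraries. Large differences were also fitted for Pde10a (-5.55, SE 0.165), Adcy5 (-5.24, SE 0.186), Pde2a (-4.93, SE 0.251), Adcy6 (-4.65, SE 0.110) and, on 14 summed mESC counts, Adcy4 (-4.89, SE 0.259). A total of 9 members were not called. Adcy3 read 4.64, 6.24, 6.39 and 7.06 TPM, within the embryonic range of 3.67 to 12.2 TPM, and its log2 difference was 0.06 (SE 0.110). Adcy9 (-0.34), Pde12 (0.52) and Pde3b (-0.66) were also among the 9. Pde8a was called higher, with 8.56, 10.8, 13.7 and 12.6 TPM against 3.13 to 5.33 TPM (1.74, SE 0.139, adjusted p = 1.7e-16). Oligodendrocyte markers summed to 13.4 TPM in B6-1 and 10.9 TPM in B6-2, and their part in the result was not tested. The other 3 called higher, Pde4c, Pde6b and Pde6g, were at most at 0.74 TPM, Pde4c lost its call without B6-1 replicate 2 (adjusted p = 0.079), and limma on TPM called Pde8a alone. Of 7 G protein genes 6 were lower and 0 higher, of 13 cAMP effectors 7 and 0, of 11 cGMP genes 8 and 3, and of 9 channels 5 and 1.

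Some members were not called in any of the 6 comparisons of an adult area with the rest. Pde12 lay between 3.28 and 5.39 TPM as a group mean, Pde4d, a cAMP-specific enzyme with many isoforms, between 26.3 and 45.8 TPM, Gucy1a2 between 5.17 and 11.8 TPM and Pde7a between 9.26 and 20.2 TPM. Adcy4 stayed between 1.36 and 3.23 TPM and the retinal cyclase Gucy2e between 0.44 and 1.44 TPM. Gucy1b2 lay between 0.072 and 0.36 TPM, while Pde6h, the cone inhibitory subunit, was not level, with group means from 0.17 TPM in VMH to 4.19 TPM in ENT. Over the 18 adult group means the members whose profiles were most alike were Pde1a with Pde2a, Pde4b with Pde7b, each at a Pearson r of 0.93, Pde3b with Pde9a (0.92) and Adcy1 with Pde5a (0.91). These are descriptions over group means that share libraries and a few extreme regions.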

How the data were processed

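Poly(A) RNA was sequenced from 70 libraries as stranded single reads of 33 cycles, and the authors quantified transcripts with kallisto on Ensembl GRCm38 cDNA after base calling with CASAVA 1.8.2. The authors deposited estimated counts and TPM per transcript, and gene TPM as the sum over transcripts. Here, 98.8% of 109282 transcripts were matched to genes (GENCODE M21), and estimated counts were added up within genes, then rounded to whole numbers. Libraries held 9074581 to 22229582 counts, and this number together with the 1 to 4 pools per group limits the precision.

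Levels are the deposited gene TPM. Differences were tested in edgeR 4.0.16 (quasi-likelihood, TMM factors, filterByExpr, R 4.3.3), in 1 fit over all libraries and groups, with adult reference regions weighted equally and Benjamini-Hochberg adjustment over 19980 genes. Calls needed an adjusted p below 0.05 and a log2 difference larger than 1 in size. The script was tested on simulated data. Alternatives were DESeq2 1.42.0, limma 3.58.1 on log2(TPM + 0.5) and log2(TPM + 0.1), library totals without TMM, no filter, a replicate block, 2 pooled groups, a fit without mESC, and leaving libraries out in turn. Figures were drawn with matplotlib 3.10.9.

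The members and the marker and pathway lists were chosen with earlier results of these data known. In each comparison all called members were named, up to 6 per direction with full statistics, Adcy3 always, and up to 3 genes of each pathway list, while the result of a gene on the channel list is not reported here by name. For 365 of 32435 genes, Pde4c among them, the transcript sums differed from the gene TPM by over 1% of the gene's maximum, so that counts may cover only part of them. The study lists collection batches for the samples of each region without naming the library of each, so batch entered no fit, and no columns were left unmapped.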

Additional observations from a re-analysis of the deposited data

Results flagged for a closer look

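In groups of 4 libraries, 9 of 170 combinations of a member and a group had a single library far from the other 3 by Dixon's test, at a level where chance gives about 1 in 20. In CENT2 the first library was high for Pde1b (60.6 TPM, others 17.4 to 21.2) and Pde4a (47.9 TPM, others 30.2 to 32.7), and that library was also lower in granule and Purkinje markers (3985 TPM, others 5529 to 5982) and higher in dopamine neuron markers (123 TPM). Whether these move together by tissue content was not tested. In FL the first library was high for Pde4b (69.0 TPM, others 46.2 to 49.6) and Pde5a (36.0 TPM, others 25.9 to 27.5), and the third was low for Adcy7 (2.81 TPM, others 3.40 to 3.43) and Pde7b (6.03 TPM, others 6.99 to 7.04). The fourth NTS library was high for Gucy1a2 (12.9 TPM, others 10.4 to 10.5) and Pde4b (60.2 TPM, others 48.9 to 49.0), and the first DMH library for Pde12 (5.53 TPM, others 4.76 to 4.80).

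The embryonic change, embryonic minus adult, differed between hindbrain and hypothalamus, by the interaction contrast in edgeR, for Adcy8 (1.84), Pde1a (1.67), Gucy2f (1.52), Pde8a (-1.19) and Pde4a (-1.35), as differences of log2 changes. H was punched from the embryonic hindbrain while the adult libraries hold 3 nuclei, so area and stage cannot be told apart here.

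The single F library entered no comparison. It held 5.96 TPM of Gucy1b2, a beta chain of soluble guanylyl cyclase, where the next highest library of the series, in M, had 1.099 TPM. It also had the highest Pde7a of the series at 76.6 TPM, next to 72.0 TPM in H. With 1 library neither has a replicate check.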

How the results depend on the processing

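Of 842 counts of called genes recomputed under the alternatives, 809 stayed within 1.5 times their value. Of the results of named members 3962 were kept, 127 calls were lost and 1 turned its direction, Gucy2g in ACB (-0.25 with 2 pooled groups). The results kept include those of Adcy3 in comparisons where it was not called. With 2 pooled groups the members called lower were 1 in ACB, 5 in cortex, 3 in hindbrain nuclei and 0 in VTA, 1 was called higher in the hypothalamus, and all genes called were 1084 in ACB and 449 in VTA. Without TMM 5 were lower in cortex. In limma with a pseudocount of 0.5, members called higher were 1 in hypothalamus, 1 in CBN, 3 in embryonic hindbrain and 1 in mESC, 2 were lower in hypothalamus, 1 differed among hindbrain nuclei, and all genes called were 1062 for hypothalamus and 886 for hindbrain nuclei. With 0.1, members called higher were 1, 3, 3 and 1 in the same order, 5 were lower in VTA with 3163 genes called there, and 1 differed among hindbrain nuclei. Leaving out 1 library gave 1 to 2 members lower in VTA, 3 to 5 higher in embryonic hypothalamus, 3 to 5 called among cortical areas, 1 to 4 among hindbrain nuclei and 1 to 5 with the more positive embryonic change in hindbrain. For the comparisons between adult areas, libraries of the reference regions other than the first of VTA were not left out. The median of all genes shifted by -0.17 (cortex) and -0.19 (VTA) without TMM, and by -0.51 (VTA), -0.20 (CBN), 0.15 (lobules) and -0.30 (mESC) in limma with 0.5. Other causes were not tested. Replicate numbers did not pair the libraries: deviations of same-numbered libraries correlated with a median r of 0.007, and those of other numbers with -0.002. The numbers need not follow the shared animals, so that sharing was not tested. With the replicate block 2 members were lower in VTA, 4 differed among cortical areas, 3 among hindbrain nuclei and 2 had the more positive embryonic change. Depth limits members under about 1 TPM, such as Gucy2d, Gucy2f and Pde6c, whose folds rest on few reads.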
